A study of Homo sapiens with 2 samples.

Results

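The 9 genes described here code for proteins through which S100A7 or its relatives have been proposed to act: the receptors and adaptor AGER, TLR4, MYD88 and BSG, the shared receptor ligand HMGB1, the intracellular partners RANBP9, FABP5 and COPS5, and the COPS5 target CDKN1B. They were listed by name from what is known of S100A7, with no threshold on a measured value, although earlier results of these data were known, and every probe set annotated to 1 of them alone was taken, 20 of the 54675 probe sets on each array and 9 of the 19775 genes that the probe sets cover. All 9 genes had at least 1 probe set, and 0 probe sets listed a member together with another gene. The S100A7 cells were MDA-MB 231 stably transfected with S100A7 in the plasmid pIRES2-EGFP, and the vector cells were MDA-MB 231 carrying pIRES2-EGFP alone. Both lines thus hold the plasmid and its green fluorescent protein gene, and both were selected as stable transfectants. MDA-MB 231 is a highly invasive human breast cancer line that lacks the estrogen receptor. The sample records list 10% serum for both lines. Total RNA of each line was measured on 1 Affymetrix expression array, so there were no replicates, no test and no p-value, and no difference below has been set against the spread between cultures or between separately selected lines. Whether each line is 1 clone or a pool of clones is not given in the sources used here.

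S100A7, or psoriasin, is a small calcium-binding protein that acts both outside and inside the cell. Outside, members of its family bind RAGE, the receptor for advanced glycation end products coded by AGER, and some also bind the pattern receptor TLR4, whose signal runs through the adaptor MyD88 to NF-kB. Inside, S100A7 has been found to bind Jab1, the product of COPS5, which is the catalytic subunit of the COP9 signalosome and promotes the nuclear export and breakdown of the cyclin-dependent kinase inhibitor p27, the product of CDKN1B. Arrays measure messenger RNA, so they do not show binding, protein level or where a protein is in the cell.

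The array values were MAS5 intensities on a linear scale, 1 for each probe set, and the levels of different probe sets cannot be compared with each other. A floor stood in for detection calls. It was each array's 50th percentile, 69.0 on the S100A7 array and 71.0 on the vector array. A probe set was counted as measured if either array put it at or above the floor, values under the floor were raised to it, and the brightest measured probe set stood for its gene. Listed genes without a probe set naming them alone in the annotation used were not analysed here and are not among the measured ones. Differences are log2 ratios, S100A7 over vector, so a positive one means higher in S100A7 cells. The transfected gene bore out the labels: the S100A7 probe set read 13232 in S100A7 cells, against 11.99 in vector cells, at least 186-fold higher. The cell line was also checked against its markers. All 7 genes taken as markers of MDA-MB 231 were measured, as were 12688 of all 19775 genes. Among the markers, VIM (vimentin) read 35575 in S100A7 cells and 38087 in vector cells. ESR1, the estrogen receptor gene, was under the floor on both arrays (49.1 in S100A7 cells and 42.96 in vector cells). Of 6 genes taken as absent from the line, 4 were under the floor on both arrays. ERBB3 read 57.3 in S100A7 cells and 71.7 in vector cells. GATA3 read 752 in S100A7 cells and 719.7 in vector cells on its brightest probe set. Its others were nearer the floor: 209602_s_at read 80.1 in S100A7 cells and 88.9 in vector cells, and 209603_at read 46.0 in S100A7 cells and 112.5 in vector cells. The description of the S100A7 sample also holds a line about embryos, which cannot refer to this cell line and was set aside.

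None of the 8 members measured differed by 2-fold between the arrays. The count of members past 2-fold was 0 on either side, where 4.05% of all 12688 measured genes passed 2-fold in either direction (1.80% higher and 2.25% lower). At that background, 0 of 8 genes is near the share for genes in general and is not a result about the members. At 1.5-fold, which 18.2% of all measured genes passed (8.12% higher and 10.0% lower), the number of members was also 0 in each direction. The log2 ratios ran from -0.33 for TLR4 to 0.43 for RANBP9, with a median of -0.08 beside -0.04 over all measured genes. Above 0 were 3 members (RANBP9, COPS5 and FABP5), and below 0 were 5 (TLR4, MYD88, CDKN1B, BSG and HMGB1), while 45.8% of all measured genes lay above 0. As a scale for these values, log2 ratios of different probe sets of the same gene had a pooled standard deviation of 0.36 over 6465 genes. That is a spread within a pair of arrays and not between cultures. Of the 8 members 7 lay closer to 0 than this, as did 61.6% of all measured genes, and RANBP9 lay beyond it.

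**Figure D1:**
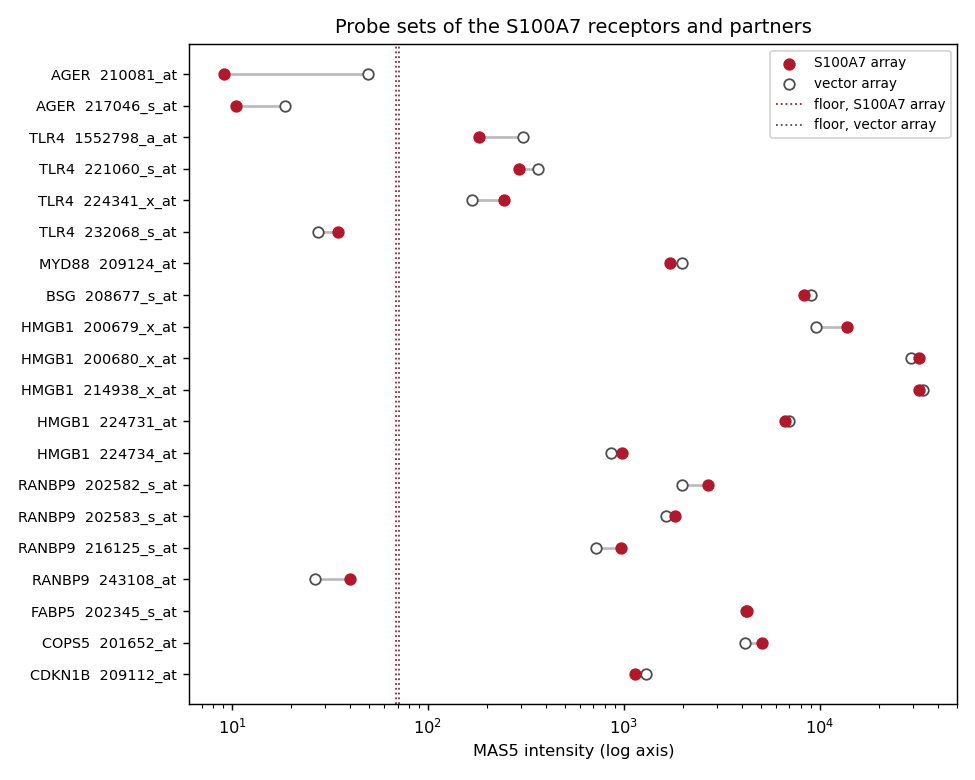
Intensity (log axis) of the 20 probe sets of the 9 genes, filled points for the S100A7 array and open points for the vector array, with each array's floor as a dotted line. In 4 probe sets, both of AGER and 1 each of TLR4 and RANBP9, both points lie left of the floor, and in the other 16 the points lie within 2-fold of each other.

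AGER, the gene of RAGE, a receptor described for S100A7, was not detectable above the floor in either line. Its probe set 210081_at read 9.12 in S100A7 cells and 49.3 in vector cells. Its other probe set, 217046_s_at, read 10.5 in S100A7 cells and 18.6 in vector cells. Both readings were lower in S100A7 cells, but all 4 lay under the floor, so no fold was taken from them. Deposited values under the floor vary widely: of the 16653 probe sets under it on both arrays, 45.7% differed by at least 2-fold either way, and 14.4% by at least as much as the 5.40-fold of 210081_at. An intensity under the floor does not show that the transcript is absent.

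TLR4, the receptor of bacterial lipopolysaccharide that also takes S100 and HMGB1 ligands, was measured in both lines, and its probe sets went in different directions. Its brightest probe set, 221060_s_at, read 291 in S100A7 cells and 365 in vector cells (log2 ratio -0.33). Probe set 1552798_a_at read 183 in S100A7 cells and 305 in vector cells (log2 ratio -0.74), which is the largest difference of any measured member probe set. Against these, 224341_x_at was higher in S100A7 cells, at 244 against 169 in vector cells (log2 ratio 0.53). The fourth, 232068_s_at, was under the floor at 34.8 in S100A7 cells and 27.4 in vector cells. The 3 measured log2 ratios of TLR4 thus spanned 1.27, and of the 1715 genes with 3 measured probe sets 4.90% had a span at least that wide, the median being 0.50. Which direction TLR4 took therefore depends on the probe set read, and suffixes such as _x_at and _s_at mark probe sets that can match several transcripts.

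Of the genes for co-receptors of TLR4, LY96 was measured and CD14 was not. LY96, which codes for MD-2, the co-receptor that holds lipopolysaccharide, read 436 in S100A7 cells and 704 in vector cells on its 1 probe set (log2 ratio -0.69). CD14, which hands lipopolysaccharide to TLR4 and MD-2, was under the floor in both, at 44.8 in S100A7 cells and 9.32 in vector cells. CNPY3, a chaperone that brings Toll-like receptors to the cell surface, had a log2 ratio of 0.32 for its brightest probe set, with others down to -0.15. TLR5, the flagellin receptor, read 73.1 in S100A7 cells and 95.7 in vector cells (log2 ratio -0.39), both close to the floor.

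In the list of Toll-like receptors and co-receptors, TLR3 alone passed 2-fold. TLR3, which senses double-stranded RNA and does not use MyD88, read 297 in S100A7 cells and 119 in vector cells on its brightest probe set, 2.49-fold higher. Its other measured probe set, 239587_at, read 164 in S100A7 cells and 77.5 in vector cells (log2 ratio 1.09), so both were higher by about the same amount, and the remaining one, at 17.4 in S100A7 cells and 17.6 in vector cells, was under the floor. Of 16 genes listed 9 were measured, 1 passed 2-fold upwards and 0 downwards, and the median log2 ratio was -0.02. TLR1, TLR7, TLR8, TLR9 and TLR10 were under the floor on both arrays.

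MYD88, the adaptor that links TLR4 and the interleukin-1 receptors to IRAK kinases, read 1713 in S100A7 cells and 1980.4 in vector cells on its single probe set, 209124_at, a log2 ratio of -0.21. Of all measured genes, 61.0% lay at least as far from 0. Around it, the genes of MyD88-dependent signalling went both ways. IRAK1, the kinase recruited to MyD88, read 7453 in S100A7 cells and 11930.2 in vector cells (log2 ratio -0.68), and its other probe set, 1555784_s_at, was also lower, at -0.79. IRAK2, which sustains the same signal, read 413 in S100A7 cells and 230.0 in vector cells (log2 ratio 0.84), although its other measured probe set, near the floor, was at 0.11. IRAK3, the inactive kinase that limits this pathway, read 113 in S100A7 cells and 21.2 in vector cells, where it was under the floor, so its log2 ratio was at least 0.68. UBE2N, the conjugating enzyme with which TRAF6 builds ubiquitin chains, was at -0.37 with its 3 probe sets between -0.44 and -0.37. Of 17 genes listed 14 were measured, 0 passed 2-fold, 6 had log2 ratios above 0 and 8 below 0, and the median was -0.06.

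The other branch of TLR4 signalling runs through TRIF, the product of TICAM1, to interferon genes. Log2 ratios lay above 0 for 5 of its 7 measured genes, and for 45.8% of all measured genes. IKBKE, a kinase that activates interferon regulatory factors, read 697 in S100A7 cells and 404 in vector cells (log2 ratio 0.79), but its other probe set was at -0.15. IRF7, an interferon regulatory factor, read 419 in S100A7 cells and 291 in vector cells (log2 ratio 0.53). In the other direction, IRF3 was at -0.43 and the kinase gene TBK1 at -0.17. Of 9 genes listed 7 were measured, 0 passed 2-fold and the median was 0.41, beside -0.04 over all measured genes. It was 0.21 with the floor at the 70th percentile and 0.20 without probe sets ending in _x_at or _s_at. The difference between both branches was not tested.

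**Figure D2:**
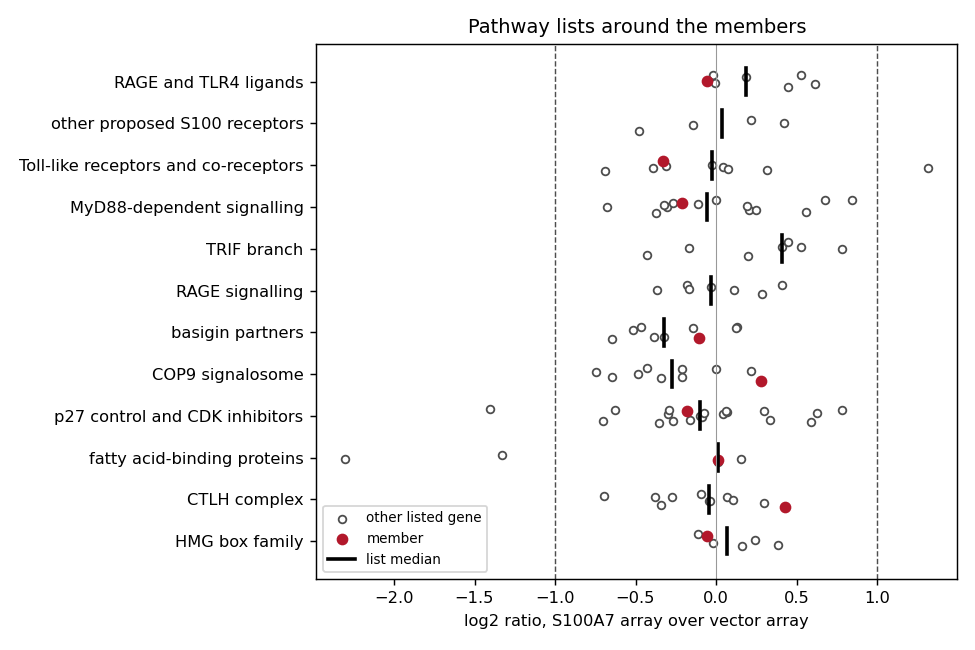
Log2 ratio (S100A7 over vector) for each measured gene of 12 lists, 1 row a list, with members filled, other genes open, the list median as a bar and 2-fold as dashed lines. Outside 2-fold lie TLR3 on the right, and FABP4, FABP6 and CDKN1C on the left.

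BSG codes for basigin, also called CD147 or EMMPRIN, a membrane glycoprotein that induces matrix metalloproteinases, escorts lactate transporters to the cell surface and serves as a receptor of S100A9. Its single probe set, 208677_s_at, read 8352 in S100A7 cells and 8986 in vector cells, a log2 ratio of -0.11, and 79.4% of all measured genes lay at least as far from 0. Of 12 genes in the list of its partners, BSG among them, 9 were measured. Log2 ratios lay below 0 for 7 of these 9, and for 6872 of all 12688 measured genes. In the list 0 passed 2-fold, and the median was -0.32. The lactate transporter genes SLC16A1 and SLC16A3 had no probe set of their own in the annotation used and were not analysed here. SLC7A5, the light chain of a leucine transporter that associates with basigin, read 5441 in S100A7 cells and 8528 in vector cells (log2 ratio -0.65). EMB, which codes for embigin, a relative of basigin and another escort of lactate transporters, read 382 in S100A7 cells and 547 in vector cells (log2 ratio -0.52). Above 0 were SLC16A7, a lactate and pyruvate transporter, at 0.13, with probe sets from -0.79 to 0.28, and CD44, the hyaluronan receptor, at 0.12, with all 12 of its measured probe sets above 0. After the median of each gene's neighbours along the chromosome was subtracted, the list median was -0.07.

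Beyond AGER, TLR4 and BSG, the list of other proposed S100 receptors held 4 measured genes of 6, with 0 past 2-fold and a median of 0.04. MCAM, an adhesion molecule of the melanoma and endothelial surface, read 1789 in S100A7 cells and 1336 in vector cells (log2 ratio 0.42), and its other probe set was at 0.32. ALCAM, an adhesion molecule of activated leukocytes, read 8379 in S100A7 cells and 11653 in vector cells (log2 ratio -0.48), with its 3 probe sets between -0.57 and -0.34. NPTN, which codes for neuroplastin, a relative of basigin, was at -0.14. FGFR1, a receptor tyrosine kinase that can bind S100B, was at 0.22, and its 7 probe sets ran from 0.12 to 1.07. The RAGE signalling list, which includes DIAPH1, the formin that binds the tail of RAGE, had 7 measured genes of 10, 0 past 2-fold and a median of -0.03. In it DIAPH1 was at -0.18, the kinase gene MAPK3 at -0.37 and the kinase gene ROCK1 at 0.41, with ROCK1 probe sets up to 1.26.

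HMGB1, a chromatin protein that acts as an alarm signal through RAGE and TLR4 once it leaves the cell, was bright in both lines on all 5 of its probe sets. The brightest, 214938_x_at, read 32229 in S100A7 cells and 33508 in vector cells (log2 ratio -0.06), and 200680_x_at read 32277 in S100A7 cells and 29257 in vector cells (log2 ratio 0.14). Probe set 200679_x_at stood apart from both, at 13748 in S100A7 cells and 9540.3 in vector cells (log2 ratio 0.53). These 3 carry the suffix _x_at, which marks probes that can also match other sequences. The 2 without it were 224731_at, at 6643 in S100A7 cells and 6982 in vector cells (log2 ratio -0.07), and 224734_at, at 978 in S100A7 cells and 858 in vector cells (log2 ratio 0.19). The 5 log2 ratios spanned 0.60, below the median span of 0.74 among 328 genes with 5 measured probe sets. The sign of HMGB1 turned with the processing: it was 0.08 after quantile normalization and 0.14 for the median over probe sets.

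Ligands of RAGE and TLR4, HMGB1 among them, were described from a list of 15 genes. Of these 7 were measured, 0 passed 2-fold and the median log2 ratio was 0.18, or 0.32 over the 6 other than HMGB1. With HMGB1 included, the median depended on the processing, at 0.05 without a floor and 0.09 with the floor at the 30th percentile. Without probe sets ending in _x_at or _s_at it was -0.0037. S100A11 read 12107 in S100A7 cells and 7891 in vector cells (log2 ratio 0.62), and S100A6 read 23280 in S100A7 cells and 16173 in vector cells (log2 ratio 0.53), its other probe set being at 0.15. HMGB2, the nearest relative of HMGB1 in this list, read 11163 in S100A7 cells and 11326 in vector cells (log2 ratio -0.02). S100A8 and S100A9, which together form calprotectin, the best studied S100 ligand of TLR4, were under the floor on both arrays: S100A8 read 18.7 in S100A7 cells and 12.04 in vector cells, and S100A9 read 9.69 in S100A7 cells and 9.37 in vector cells. S100A12, S100B and S100P were also under it. In the HMG box family, 6 of 7 genes were measured, with 0 past 2-fold and a median of 0.07 that turned negative under 4 of 9 alternatives. UBTF, which activates ribosomal RNA genes, stood highest at 0.38, HMGB3 was at 0.24, and SSRP1, a histone chaperone subunit, stood lowest at -0.11. The probe sets of each of these genes went both ways. Those of UBTF ran down to -0.15, the other of HMGB3 was at -0.23 and the other of SSRP1 at 0.28.

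RANBP9, also called RanBPM, is a scaffold protein found to bind S100A7 and a core subunit of the CTLH ubiquitin ligase complex. It had the highest log2 ratio of the members, and its 3 measured probe sets went the same way. Probe set 202582_s_at read 2685 in S100A7 cells and 1992 in vector cells (log2 ratio 0.43). Probe set 216125_s_at read 964 in S100A7 cells and 723 in vector cells (log2 ratio 0.42). The difference was smaller on 202583_s_at, at 1827 in S100A7 cells and 1640.1 in vector cells (log2 ratio 0.16). The fourth, 243108_at, was under the floor at 40.1 in S100A7 cells and 26.5 in vector cells. The log2 ratio of 0.43 amounts to 1.35-fold, and 30.9% of all measured genes lay at least as far from 0. RANBP9 lies on chromosome 6, where the median over 664 measured genes was 0.24, and after its neighbours' median of 0.17 was subtracted 0.26 was left. The part of chromosome 6 in the result beyond that was not tested.

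The genes of the CTLH complex went both ways. All 11 listed genes, RANBP9 among them, were measured, 0 passed 2-fold, 4 had log2 ratios above 0 and 7 below 0, and the median was -0.04. RANBP10, the close relative of RANBP9, read 655 in S100A7 cells and 534 in vector cells (log2 ratio 0.30), with its other measured probe set at 0.31. GID4, a substrate receptor of the complex, was lowest, at 314 in S100A7 cells and 508 in vector cells (log2 ratio -0.69), with its other probe set at -0.88. RMND5B, a RING subunit, was at -0.38 with its other probe set at -0.35. MKLN1, also in the list, was at -0.27, with its measured probe sets going down to -1.09.

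FABP5, the epidermal fatty acid-binding protein, forms a complex with S100A7 in keratinocytes and carries fatty acids to nuclear receptors. Its probe set, 202345_s_at, read 4250.5 in S100A7 cells and 4216 in vector cells, a log2 ratio of 0.01. Of all measured genes 97.5% lay at least as far from 0. Its relatives were mostly under the floor, and the pair that passed 2-fold were under it on the S100A7 array. FABP4, the fatty acid-binding protein of fat cells and macrophages, read 57.7 in S100A7 cells and 340.3 in vector cells, at least 4.93-fold lower. FABP6, the bile acid-binding protein of the ileum, read 48.97 in S100A7 cells and 173 in vector cells, at least 2.51-fold lower. A second probe set of FABP4, 235978_at, was under the floor on both arrays with the opposite direction, at 57.8 in S100A7 cells and 6.69 in vector cells, and the other probe sets of FABP6 were under it too. Of 12 genes in this list, FABP5 among them, 5 were measured, 0 passed 2-fold upwards and 2 downwards. The median was 0.01, which is the value of FABP5 itself, and -0.66 over the 4 measured genes without FABP5. PPARD, a nuclear receptor to which FABP5 delivers its ligand, was at 0.15 with 3 probe sets reaching 0.81, and CRABP2, which carries retinoic acid, was at 0.01. Since FABP4 is a macrophage gene as well, blood cell markers were read beside it. Of 11 such markers 2 were measured, ITGAM (48.4 in S100A7 cells and 127 in vector cells) and CSF1R (164 in S100A7 cells and 128 in vector cells), while PTPRC, TYROBP, LYZ and CD14 were under the floor on both arrays. Summed over the 9 with a probe set of their own, the brightest probe sets of these markers read 442 in S100A7 cells and 469 in vector cells, and their part in the result was not tested. Among 7 fibroblast and endothelial markers 3 were measured, PECAM1 (168 in S100A7 cells and 132 in vector cells), ACTA2 (132 in S100A7 cells and 149 in vector cells) and CDH5 (78.96 in S100A7 cells and 24.8 in vector cells).

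COPS5 codes for Jab1, the subunit of the COP9 signalosome that removes the ubiquitin-like protein NEDD8 from cullins. Its single probe set, 201652_at, read 5055 in S100A7 cells and 4170.3 in vector cells, a log2 ratio of 0.28, or 1.21-fold higher. Of all measured genes 50.2% lay at least as far from 0. Most other signalosome genes were lower in S100A7 cells. COPS6, which pairs with COPS5 in the complex, read 3716 in S100A7 cells and 6231 in vector cells (log2 ratio -0.75), and its other probe set, 213504_at, was at -0.56. COPS4 read 3581 in S100A7 cells and 5592 in vector cells (log2 ratio -0.64). COPS7A was above 0, at 2401 in S100A7 cells and 2066 in vector cells (log2 ratio 0.22), and GPS1, which codes for subunit CSN1, was at 0.00. COPS8 was at -0.21, with its measured probe sets from -1.25 to 0.09. All 10 listed genes were measured, and 0 passed 2-fold on the probe set that stood for the gene. Above 0 were 3 and below 0 were 7, while 6872 of all 12688 measured genes lay below 0. The median of the list was -0.28, and it stayed below 0 under all 9 alternatives that give a median, between -0.31 and -0.24. COPS5 had the highest value of the 10. Each of these values comes from 1 array a line, and the difference between COPS5 and the other subunit genes was not tested.

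CDKN1B codes for p27, which holds cyclin-dependent kinases inactive and is exported and broken down with the help of Jab1. Its single probe set, 209112_at, read 1142 in S100A7 cells and 1292 in vector cells, a log2 ratio of -0.18, and 66.1% of all measured genes lay at least as far from 0. Since p27 is controlled largely through breakdown of the protein, its messenger RNA does not show how much protein the cells held. Among the 21 listed genes of p27 control and the related inhibitors, all were measured, 0 passed 2-fold upwards and 1 downwards, with a median of -0.10. The lower one was CDKN1C, which codes for p57, a relative of p27. Its brightest measured probe set, 219534_x_at, read 101 in S100A7 cells and 266 in vector cells, 2.64-fold lower, but the other measured probe sets were at -0.96, -0.72 and -0.13. CDKN1A, which codes for p21, was at 0.04, and SKP2, the ubiquitin ligase subunit that marks p27 for breakdown, at -0.27. Among the partners that p27 inhibits, the cyclin genes CCNA2 (5335 in S100A7 cells and 3106 in vector cells, log2 ratio 0.78) and CCNE2 (2964 in S100A7 cells and 1923 in vector cells, log2 ratio 0.62) stood highest. The other probe set of CCNA2 was at 0.72 and that of CCNE2 at 0.18. The remaining cyclin and kinase genes went both ways. CCND1 was at 0.33 and CCND3 at 0.07, while CCNE1 was at -0.35, CDK4 at -0.29, CDK2 at -0.18 and CDK6 at -0.08. The cytokine receptor kinase gene JAK2, whose product can phosphorylate p27, was second lowest of the list, at 116 in S100A7 cells and 188 in vector cells (log2 ratio -0.70).

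**Figure D3:**
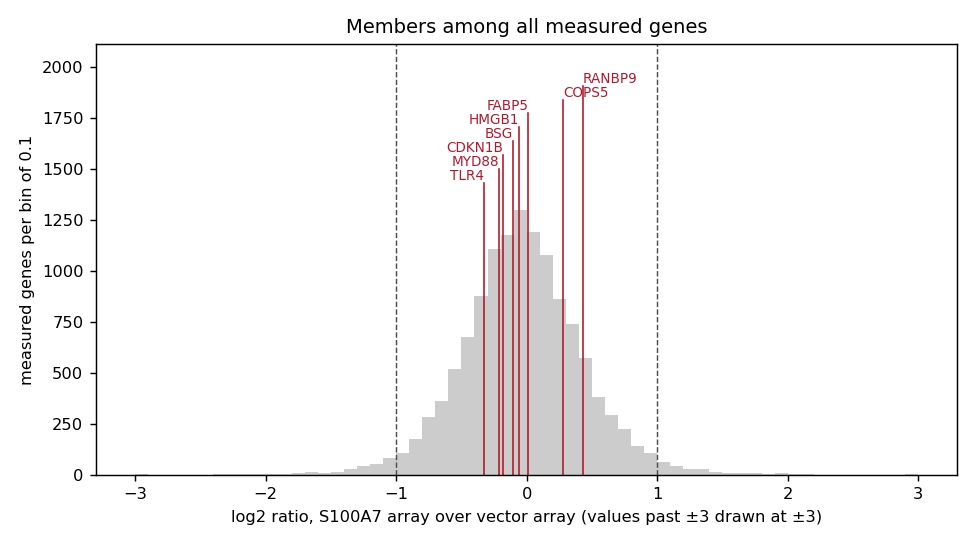
Log2 ratios (S100A7 over vector) for all 12688 measured genes (grey bars, number of genes per bin) with the 8 measured members as labelled lines and 2-fold as dashed lines. All 8 lie between -0.33 and 0.43, in the main body of the distribution.

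Median log2 ratios differed by chromosome, being 0.24 on chromosome 6 and -0.15 on chromosome 8, so each member was also read against the median of the 40 nearest measured genes, 20 on each side. HMGB1 moved most: its neighbours on chromosome 13 had a median of 0.25, which left -0.31. The neighbours of COPS5 on chromosome 8 had a median of 0.13, leaving 0.15, and those of FABP5 on the same chromosome -0.12, leaving 0.14. TLR4 was left at -0.18, MYD88 at -0.12, CDKN1B at -0.11 and BSG at -0.06. Read this way the median of the members was -0.09, and again 0 of 8 passed 2-fold.

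**Figure D4:**
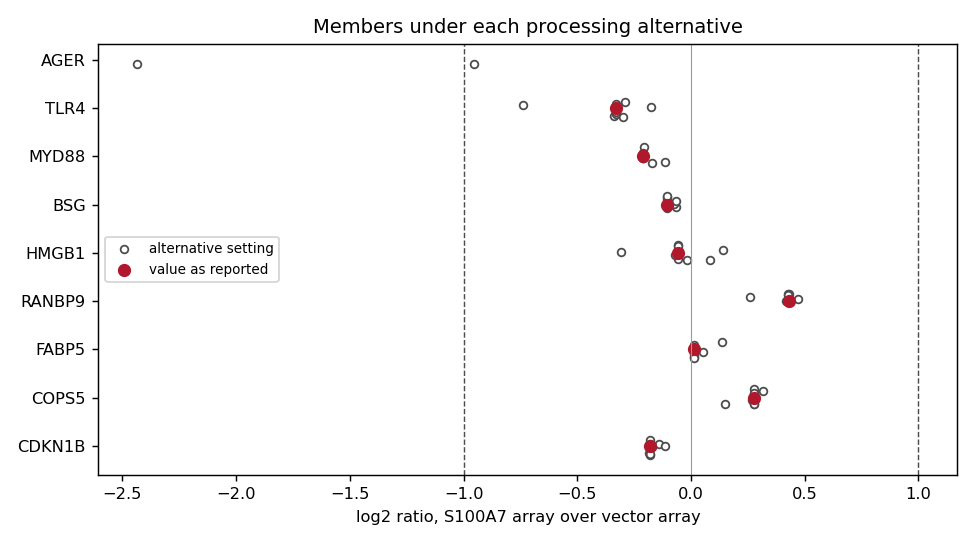
Log2 ratio of each member as reported (filled) and under each processing alternative that gives it a value (open), with 2-fold as dashed lines. AGER has no reported value and appears where the floor was lowered or removed, and TLR4 at -0.74 rests on 1552798_a_at.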

How the data were processed

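The authors deposited linear intensity values, 1 for each probe set on each array, made with MAS5 per the submitters' processing notes. Its version, scaling target and detection calls were not given in the sources used here. With 2% of the probe sets trimmed from either end, both arrays averaged 500.1, so values were used as deposited. Ratios of 3' over 5' intensity were 1.07 on the S100A7 array and 1.09 on the vector array for ACTB, and for GAPDH 0.801 on the S100A7 array and 0.718 on the vector array. The platform annotation paired 41091 probe sets other than controls with 1 gene, 1801 with several and 11721 with none; 41037 were matched by Entrez identifier to GRCh38.p14 gene names. Measured were 24438 probe sets of 12688 genes. Columns of values left unused numbered 0.

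With 1 array per group, genes were counted by fold and no test was run. The number of arrays limits the precision. Members and all 17 lists were chosen with earlier results of these data known. Named were all members, S100A7, LY96, CD14, and from each of the 12 pathway lists the genes past 2-fold and the 2 highest and 2 lowest measured ones, of which 1 is not reported here; other genes were chosen after their values were seen. Counting genes past 2-fold was checked on simulated arrays. Their noise was a preset value not estimated from these data, so the check covers the code and not the accuracy of the counts. Python 3.11.15, numpy 2.4.6 and pandas 2.3.3 were used.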

Additional observations from a re-analysis of the deposited data

How the results depend on the processing

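Counts, the median and each member were recomputed with median centring, quantile normalization, and a floor at the 30th or at the 70th percentile. Other settings were a pseudocount of 32 instead of raising values to the floor, with the filter kept, and no floor or filter at all. The rest were the median over probe sets, no probe sets ending in _x_at or _s_at, chromosomal neighbours subtracted, and a threshold of 1.5-fold for the counts. The members at least 2-fold higher numbered 0 throughout. Those at least 2-fold lower numbered 0 except without a floor, where the count was 1: AGER, at -2.43, from values under the floor on both arrays. With the floor at the 30th percentile AGER was at -0.95. The median of the members lay between -0.18 and -0.03 over 9 alternatives. MYD88, BSG, RANBP9, FABP5, COPS5, CDKN1B and TLR4 kept their sign wherever they were measured, while HMGB1 changed sign in 2 of 9. TLR4 ranged from -0.74 without the shared suffixes to -0.18. Its probe set 224341_x_at, at 0.53, stood for the gene in none of these settings. That TLR4 kept its sign therefore does not settle its direction. MYD88, BSG, FABP5, COPS5 and CDKN1B have 1 probe set each, above every floor. Their values were therefore the same under the floor settings and for the median over probe sets. A pseudocount could not turn their sign either, so keeping it under these settings was fixed beforehand. The measured probe sets of RANBP9 all lay above 0, so its sign was fixed under the same settings. For TLR4 these settings always read 221060_s_at, so its sign was fixed there as well. Without the shared suffixes 5 members were left, since BSG, RANBP9 and FABP5 have no other measured probe set, and the median of the fatty acid-binding list was -0.66. Medians near 0 also turned: under median centring that of the Toll-like receptor list was 0.02 and that of the RAGE signalling list 0.01. The median of the MyD88 list ranged down to -0.23 and that of the CTLH list to -0.31. No paired analysis was possible because each group has 1 array. Low signal limits AGER and most relatives of FABP5, and disagreement between probe sets limits TLR4.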
